A study of Danio rerio with 36 samples.

Results

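The zebrafish genes ptprfa and ptprfb are paralogs, copies of 1 ancestral gene that both encode receptor protein tyrosine phosphatases of the LAR type. They were chosen by the differentially methylated regions (DMRs) that each had in the deposited lists for sperm of the G2 generation and for sperm of the G4 generation. They are 2 of the 20731 genes with a region of either list inside the gene or within 5000 bp of it. Of these genes, 20717 had a G2 region and 143 a G4 region. The locus of a gene was taken from the first to the last of its regions. Since the methylation of sperm chose both genes, their levels in sperm are given as a description without a test, and tests were made in whole body only, which had no part in the choice.

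LAR-type receptors cross the cell membrane and carry immunoglobulin-like and fibronectin-like domains outside the cell and a pair of phosphatase domains inside it. In mammals and flies they bind adhesion proteins of neighbouring cells and proteoglycans of the matrix, and are known for their roles in axon guidance and in the formation of synapses. DNA methylation at CpG dinucleotides is copied to the new strand after replication by the maintenance methyltransferase dnmt1. In vertebrates the transcribed part of most genes is highly methylated, whereas CpG-rich gene starts often lack methylation.

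Whole genome bisulfite sequencing covered 18 fish in 6 groups of 3. Homozygous dnmt1-/- fish, which carry a hypomorphic missense allele that leaves the mutants viable, were set against wt fish in whole body (called whole embryo in the labels) at 18 dpf and in sperm of G2 males, a generation that the sample labels number 1. In the G4 generation, transmitting males (G4*), whose offspring from wt females can show impaired larval T cell development, were set against non-transmitting males (G4+). The G4 males of both kinds are genotypically wt descendants of the mutant line, so that none of them carries the mutant dnmt1 allele. The fish are of mixed background, the mutants all carry the same allele, which of the fish are siblings is not given, and 2 libraries from different kits were made for each fish and merged by the authors.

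The values are the percentage of reads that are methylated at each CpG. The authors kept a value only with at least 10 reads, and the number of reads behind each value is unknown, so no counting interval can be given. Of the 23946533 CpGs in the tables, 41.1% to 66.3% could be read in a given fish, and of those in the ptprfa and ptprfb loci 38.7% to 69.8% and 53.9% to 79.2%. Averaged over all 1 kb windows, the level was 54.5% to 54.7% in dnmt1-/- and 82.3% to 82.7% in wt whole body, and 91.8% to 92% in G4 males of both kinds. In G2 sperm it was 59.3%, 70.6% and 68.6% in dnmt1-/- males 1, 2 and 3, against 92.2% in each wt male, so that mutant male 1 stood apart. In such bulk samples, a change in the share of methylated cells and a change in the level within each cell cannot be told apart.

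The ptprfa locus (ENSDARG00000103479) lay at chr6:2913529-3107013 of danRer10, a stretch of 193.5 kb with 3815 CpGs. Its 39 G2 DMRs covered 14.3% of the locus. All were inside the gene but 1, which ended 3239 bp before its start, and the next region, at 8581 bp, fell outside the limit with levels of 71% in dnmt1-/- and 89.9% in wt sperm, against 81.9% and 99.2% in the last region inside it. The ptprfb locus (ENSDARG00000005754) lay at chr2:17907240-18271077, a stretch of 363.8 kb with 6021 CpGs, and its 79 G2 DMRs covered 19.5% of it. All 79 were inside the gene, and the next one, at 15343 bp, had 66.1% and 97.8% in dnmt1-/- and wt sperm. The median gene had 4 such regions, and 79 of the 20717 genes with G2 regions had at least as many as ptprfb and 519 as many as ptprfa. These counts were not adjusted for the length of a gene, and a longer gene has room for more regions. No region of another gene lay within either locus.

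Each gene had 1 G4 DMR, lower in transmitting males and inside the gene. That of ptprfa, at chr6:3003832-3004646, held 22 CpGs in 815 bp, 86.88 kb from the start of the gene. That of ptprfb, at chr2:17938898-17939254, held 16 CpGs in 357 bp, 336.9 kb from the start and thus towards the 3′ end. The CpGs in them were denser, at 27 and 44.8 per kb, than in the whole loci, at 19.7 and 16.6 per kb. The G2 DMRs were also denser than the loci, with a median of 19 CpGs and median lengths of 635 bp in ptprfa and 790 bp in ptprfb. Gene starts were inferred from the deposited distances, and whether the regions are exonic or intronic was not examined. Of the 243 G4 DMRs of the genome, 102 lay on chromosome 6 with ptprfa and 2 on chromosome 2 with ptprfb, and the nearest other G4 DMR was 255 kb and 2640 kb away.

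**Figure D1:**
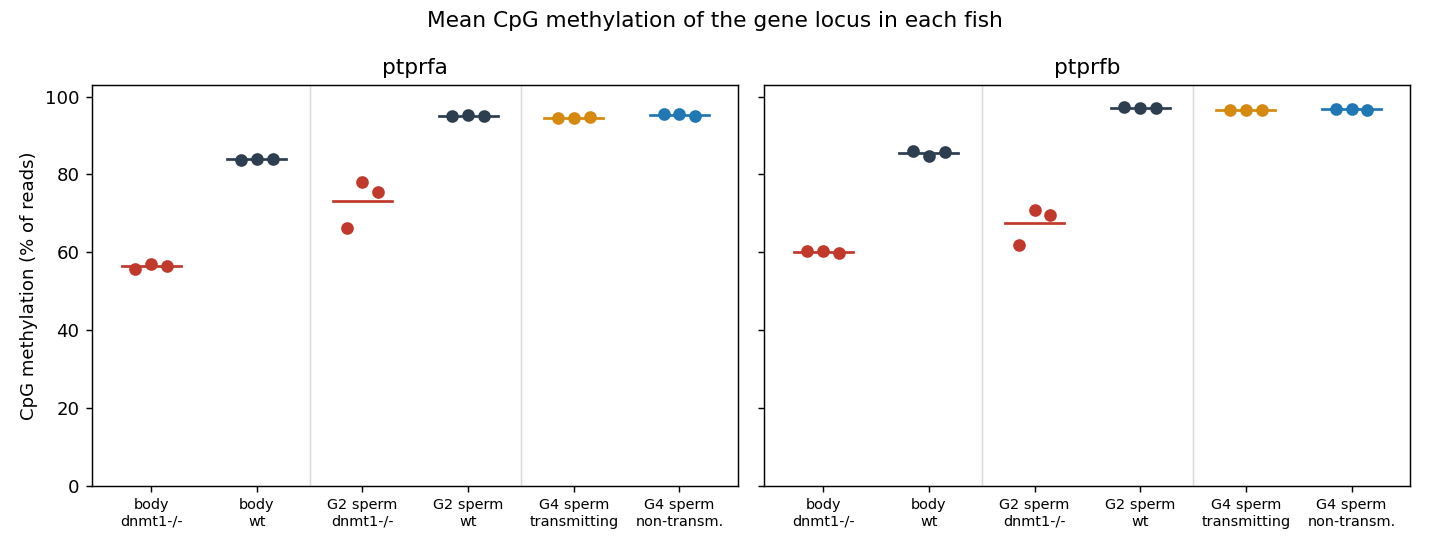
Mean CpG methylation of the ptprfa and ptprfb loci (percentage of reads methylated) in each of 18 fish; points are fish and lines group means, over the CpGs read in each of the 6 fish compared. The dnmt1-/- fish sit between 55.6% and 60.4% in whole body and between 61.9% and 78.1% in G2 sperm, all below wt, and the 6 G4 males sit between 94.4% and 96.8%.

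In whole body, both genes were less methylated in dnmt1-/- fish, with 67.3% of the wt level at ptprfa and 70.4% at ptprfb. Over the 709 CpGs of the ptprfa locus read in each of the 6 fish, the level was 55.6%, 57.1% and 56.6% in dnmt1-/- fish, against 83.6%, 84.1% and 83.9% in wt fish. Over 1668 CpGs of ptprfb, it was 60.4%, 60.3% and 59.9% in dnmt1-/- fish, against 86.0%, 84.9% and 85.7% in wt fish. Each mutant thus lay more than 20 percentage points below each wt fish at both loci. All mutants lay below all wt fish, by any amount, at 15769 of 15775 gene loci (100% when rounded). The ptprfa locus fell to 56.4% ± 0.731 in dnmt1-/- fish, against 83.9% ± 0.217 in wt fish (SD, n = 3 each), a difference of -27.4 points (limma on the logit scale, coefficient -1.35, SE 0.0334, Benjamini-Hochberg adjusted p = 2.14e-08 over 15775 gene loci). The ptprfb locus fell to 60.2% ± 0.239, against 85.5% ± 0.6 in wt (SD, n = 3 each), a difference of -25.3 points (coefficient -1.32, SE 0.0365, adjusted p = 2.48e-08, limma).

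The fall was that of most genes. Of all 15775 loci tested, 95.7% were called lower in dnmt1-/- whole body (FDR under 5% and at least 20 points) and 0 higher, with a median difference of -28.3 points. An equal or larger fall was found at 57.1% of the loci for ptprfa and at 73.6% for ptprfb, so that both lay in the broad middle of the distribution. The difference between the paralogs was small. Within a fish, ptprfa minus ptprfb was -4.74, -3.19 and -3.32 points in dnmt1-/- fish, against -2.39, -0.81 and -1.78 points in wt fish. The 2 groups did not overlap and their means differed by -2.09 points (dnmt1-/- minus wt, exact permutation test over fish, two-sided, p = 0.1, below which 3 fish against 3 cannot go). Over every CpG with a value in a fish it was -1.65 points with an exact p of 0.2, and the groups overlapped.

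Along the loci, the fall in whole body was general. Of the 64 windows of 1 kb in ptprfa with at least 5 CpGs, 54 were called lower in dnmt1-/- fish and 0 higher, while 81.7% of the windows of the genome were called lower and 0.0062% higher. Of the 154 windows in ptprfb, 114 were called lower and 0 higher. The shares, 84.4% and 74%, were on either side of the genome's. In 62 and 153 windows all 3 mutants lay below all 3 wt fish, which was so in 96.6% of all windows. Of the 10 ptprfa windows not called, 8 differed by -19.7 to -16.4 points, short of the minimum. The others were a window 74.14 kb from the start, at 61% in dnmt1-/- and 66.4% in wt fish (adjusted p = 0.435, limma), and the one described next. The 40 ptprfb windows not called differed by -19.8 to -8.25 points. The median difference was -27.8 points in ptprfa and -25.2 points in ptprfb windows, and it varied little along the genes, with medians of -29.2 points for the first 100 kb of ptprfa and -26.3 points beyond, and between -26.1 and -24.1 points for successive parts of ptprfb of 100 kb. The 2 windows before the ptprfa start differed more, by -37.8 and -36.9 points.

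A few windows had little methylation to begin with. The window 153.1 kb into ptprfa (chr6:3070001-3071000, 18 CpGs) was low in every group, at 7.76% in dnmt1-/- and 7.38% in wt whole body (adjusted p = 0.794, limma), at 7.75% in dnmt1-/- and 11.2% in wt G2 sperm, and at 17.6% in transmitting and 18.1% in non-transmitting G4 sperm. Under 50% in wt whole body were also a window 62.14 kb into ptprfa, at 10.5% in dnmt1-/- and 35.9% in wt fish, and 5 windows of ptprfb. The lowest of these, 122.5 kb into ptprfb (chr2:18153001-18154000), had 9.96% in dnmt1-/- and 23% in wt fish. In wt G2 sperm these 6 windows had 93.4% to 98.8%, and in non-transmitting G4 sperm 91.3% to 98.3%, so that they were low in whole body and not in sperm. The largest difference in whole body was -38.3 points in ptprfa, 78.14 kb from its start, and -51.4 points in ptprfb, 128.5 kb from its start, over 9 and 5 CpGs.

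**Figure D2:**
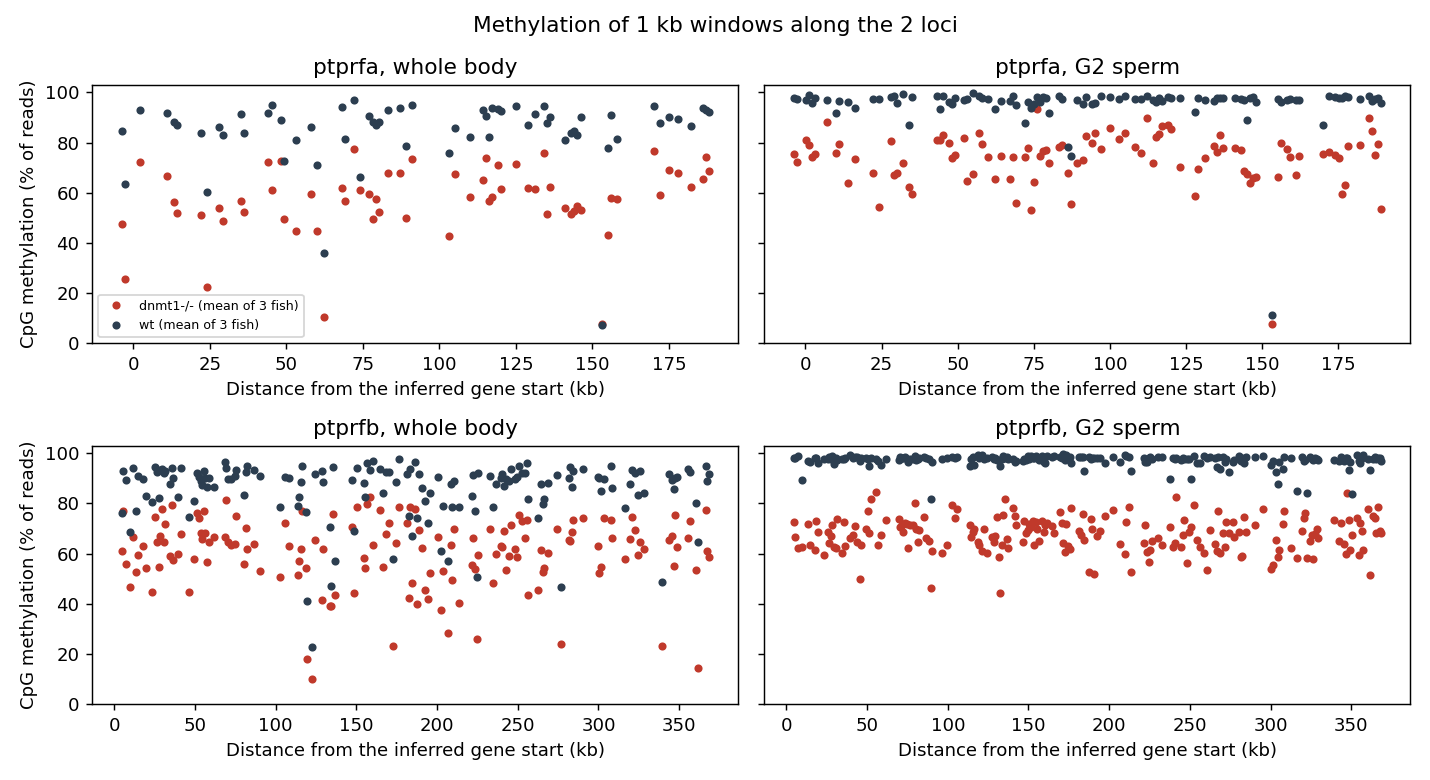
Methylation (percentage of reads) of 1 kb windows against the distance from the inferred gene start in kb, for ptprfa (top) and ptprfb (bottom) in whole body (left) and G2 sperm (right); each point is the mean of 3 fish, red for dnmt1-/- and dark blue for wt. Nearly all red points lie below the dark ones, with a median difference of -27.8 and -25.2 points in body and of -21.2 and -29.1 points in sperm, and the ptprfa window at 153.1 kb is an exception in body, with 7.76% in dnmt1-/- and 7.38% in wt fish.

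The start of the genes differed between the paralogs. In the 1 kb around the inferred start of ptprfb, 6 to 48 CpGs had a value and the level was at most 1.18% in each of the 18 fish. Around that of ptprfa, where 5 to 23 CpGs had a value, it was 55.1%, 68.5% and 59.3% in dnmt1-/- whole body, against 82.7%, 92.7% and 79.1% in wt. In G2 sperm it was 74.5%, 81.4% and 87.2% in dnmt1-/- males, against 96.2%, 94.2% and 97.2% in wt males, and in G4 sperm it was 92.4% to 96.1% in transmitting and 95.6% to 98.8% in non-transmitting males. The ptprfa start was thus methylated in wt fish and less so in each mutant, whereas the ptprfb start was almost free of methylation in every fish. Methylated starts like that of ptprfa were a minority among the genes examined, though not a rare one. Among 3188 genes whose start could be inferred in the same way, the median level in wt G2 sperm was 15.25%, and 42% of them had at least 90%. In wt whole body the median over 2679 such genes was 18.32%, and 26.1% of them had at least 80%. Only genes with several G2 regions before the start entered this set, and the share over all genes was not examined.

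The intervals chosen in sperm were also lower in whole body. Of the DMRs with at least 5 CpGs read in each of the 6 fish, 29 of 32 in ptprfa, its G4 DMR among them, and 51 of 71 in ptprfb were called lower in dnmt1-/- whole body, and 0 higher. Over all 172437 sperm intervals tested in whole body, 83.6% were called lower and 0.00754% higher. In all 32 and all 71 the mutants lay below the wt fish without overlap, as in 99.2% of all intervals. The median difference was -29 points (from -38.2 to -16) in ptprfa and -24.7 points (from -50.2 to -12) in ptprfb, with -27.8 points over all intervals.

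In G2 sperm the fall was larger at ptprfb than at ptprfa, whereas in whole body it was slightly larger at ptprfa. The wt level was higher at ptprfb in both tissues. Over 1179 CpGs, the ptprfa locus had 66.3%, 78.1% and 75.5% in dnmt1-/- males, against 95.09%, 95.15% and 94.97% in wt males. Over 2244 CpGs, ptprfb had 61.9%, 70.9% and 69.7% in dnmt1-/- males, against 97.22%, 97.04% and 96.98% in wt males. The groups were apart at both loci, as at 99.9% of all gene loci. Male 1 of the mutants was the lowest at both loci, as it was over the genome. The mean difference was -21.8 points for ptprfa and -29.6 points for ptprfb, and -18.3 and -26.8 points without that male. Within a male, ptprfa was higher than ptprfb by 4.38 to 7.18 points in dnmt1-/- sperm, whereas in wt sperm the difference ptprfa minus ptprfb was -2.14 to -1.88 points.

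Windows of the same G2 males give the same contrast at a finer scale and are not further support for it. In 58 of 102 ptprfa windows and 188 of 204 ptprfb windows the levels of the G2 groups differed by at least 20 points. The share over all windows was 71.5%, above that of ptprfa and below that of ptprfb. Of 61 ptprfa windows with values in both tissues, 12 had a larger fall in G2 sperm than in whole body (19.7%), and of 135 ptprfb windows 104 had (77%), where the genome had 41%. Across windows, the differences in body and sperm had a Spearman correlation of 0.35 in ptprfa and 0.56 in ptprfb, and of 0.6 over 367301 windows of the genome. The windows are not independent and share their base composition in both tissues.

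The G2 DMRs themselves were chosen for their difference. Their levels in sperm, here and in G4 males below, are over every CpG with a value in a male. In ptprfa they were 86 to 1776 bp long, with a median of 19 CpGs, and had 52.9% to 87.9% (median 75.2%) in dnmt1-/- sperm, against 71.6% to 99.2% (median 97.4%) in wt sperm. In ptprfb they were 237 to 2852 bp long, with a median of 19 CpGs, and had 51.1% to 83.4% (median 69.2%) in dnmt1-/- sperm, against 91.1% to 98.9% (median 97.7%) in wt sperm. Each was lower in the mutants, with differences of -37.6 to -9.64 points in ptprfa (median -19.5) and of -42.5 to -14.6 points in ptprfb (median -27.8). The median over the 154830 G2 DMRs within 5000 bp of a gene was -23.8 points, between those of the paralogs.

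In G4 sperm the methylation of both loci was close to that of G2 wt males. Over 1718 CpGs, ptprfa had 94.5%, 94.4% and 94.9% in transmitting males, against 95.57%, 95.49% and 95.02% in non-transmitting males. Over 2669 CpGs, ptprfb had 96.6% in each of the 3 transmitting males, against 96.8%, 96.8% and 96.5% in non-transmitting males. The mean difference was -0.76 points at ptprfa, where the groups did not overlap (as at 6.36% of all gene loci in this direction), and -0.16 points at ptprfb, where they did. Without the CpGs of its G4 DMR, an alternative chosen after seeing the data, ptprfa differed by -0.31 points, with 94.85% to 95.24% in transmitting and 94.99% to 95.55% in non-transmitting males. Most G2 DMRs of the mutants were likewise methylated in G4 sperm, with a median of 97% in transmitting and 96.9% in non-transmitting males for ptprfa, and of 96.8% and 97% for ptprfb. The main exception was the ptprfa region at chr6:3003701-3004483, which overlaps the G4 DMR and had 59.3% in transmitting and 98.5% in non-transmitting males. The lowest other ptprfa region in transmitting males, at chr6:3073116-3074312, had 88.7%, against 94.4% in non-transmitting males. In G2 wt males this region had 88.5%, close to the transmitting males. For ptprfb the lowest level in transmitting males was 89.8%.

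Among windows with at least 5 CpGs, the exception in each locus was at the G4 DMR. Of 135 ptprfa windows in G4 sperm, 2 differed by at least 20 points, as did 0.332% of all windows, and these were the 2 windows that the DMR overlaps, at -21.8 and -43.3 points. The other 133 windows differed by -6.37 to 2.87 points. Of 237 ptprfb windows none differed by 20 points. The window with enough CpGs that the DMR overlaps had 0% in transmitting and 18.2% in non-transmitting males, and the other 236 differed by -3.39 to 3.14 points.

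At the ptprfa G4 DMR, transmitting males had an intermediate level. Over the 17 CpGs read in each of the 6 G4 males, the level was 47.0%, 51.3% and 55.8% in transmitting males, against 97.8%, 96.8% and 97.35% in non-transmitting males, a mean difference of -45.9 points. The intermediate level was that of single CpGs and not an average of high and low ones. In the transmitting males, 19 of 20, 18 of 19 and 20 of 20 CpGs with a value lay between 20% and 80%. In the non-transmitting males, 1 of 19, 0 of 20 and 0 of 20 did, and 16, 10 and 11 CpGs were at 100%. The adjoining 1 kb had 92.9%, 94.8% and 74.6% at lower coordinates in transmitting males, against 97.35%, 96.9% and 95.3% in non-transmitting males. At higher coordinates it had 88.55%, 96% and 88.1% in transmitting males, against 97.8%, 97.3% and 97.9% in non-transmitting males. The difference thus narrowed on both sides, though over only 5 to 7 CpGs in a male at lower and 11 to 17 at higher coordinates. These were not all the same CpGs in each male. Among the 194 CpGs of this DMR and 5 kb on each side, 0 had a value in all males of 1 group and in none of the other.

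At the ptprfb G4 DMR, transmitting males were almost without methylation. Over the 11 CpGs read in each of the 6 males, the level was 3.03%, 3.03% and 2.597% in transmitting males, against 19.1%, 27.2% and 21.02% in non-transmitting males, a mean difference of -19.6 points. In the transmitting males, 12 of 16, 10 of 11 and 15 of 16 CpGs with a value were at 0%. In the non-transmitting males, 0 of 16, 0 of 12 and 0 of 13 were, and the highest CpG was at 48.8%, 38.5% and 50%. This region thus had low methylation within a highly methylated gene in all 6 G4 males. Few CpGs of the adjoining 1 kb on either side had a value (0 to 6 in a male). At lower coordinates transmitting males 1 and 3 had 0%, against 17.76% and 32.5% in non-transmitting males 1 and 3. At higher coordinates transmitting males had 1.25%, 0% and 0%, against 23.16%, 28.57% and 11.43% in non-transmitting males. Over these few CpGs the difference did not narrow outside the DMR.

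**Figure D3:**
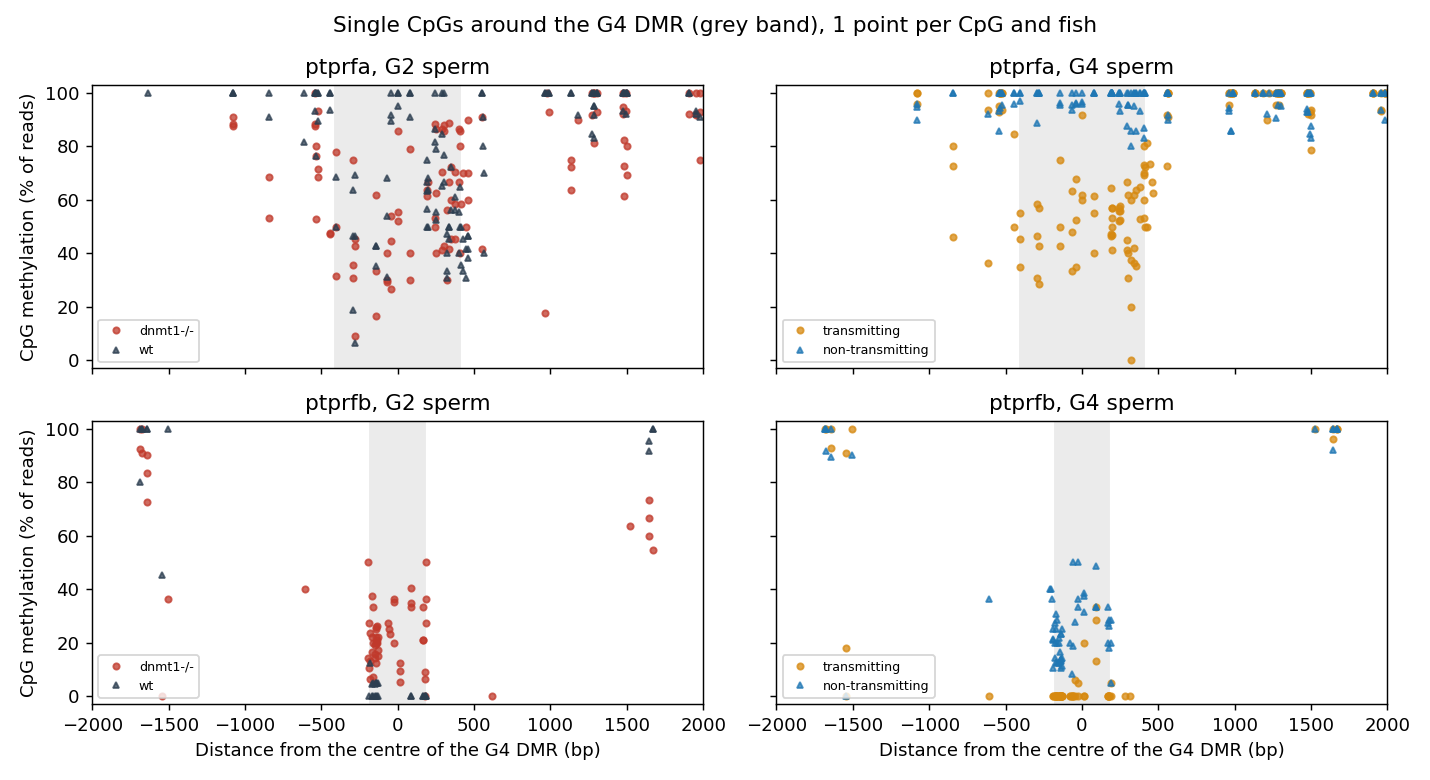
Methylation of single CpGs (percentage of reads) against the distance in bp from the centre of the G4 DMR, marked by the grey band, for ptprfa (top) and ptprfb (bottom) in G2 sperm (left) and G4 sperm (right); each point is 1 CpG in 1 male, with circles for dnmt1-/- or transmitting and triangles for wt or non-transmitting males. In ptprfa, 19, 18 and 20 CpGs of the transmitting males lie between 20% and 80% in the band, and in ptprfb, 12, 10 and 15 lie at 0%.

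In G2 sperm, the levels of the G4 DMRs did not follow those of the loci around them. At the ptprfa DMR, over 12 CpGs complete in the 6 G2 males, dnmt1-/- males had 44.2%, 41.8% and 73.3%, against 74.1%, 69.9% and 63.3% in wt males. The groups overlapped, and the mean difference of -16 points became -26.1 without mutant male 3, -10.4 without mutant male 2, -11.6 without mutant male 1 and -9.48 over every CpG with a value. The wt males of G2 were thus not fully methylated there, while the mean over their whole locus was 95.1%. The adjoining 1 kb at higher coordinates had 90.96%, 68.04% and 77.53% in wt males, against 61.49%, 88.39% and 79.41% in dnmt1-/- males. At lower coordinates it had 94.32%, 98.7% and 94.82% in wt males, against 66.3%, 77.29% and 83.56% in dnmt1-/- males. In a male, 6 to 14 CpGs had a value on the higher side and 5 to 7 on the lower. These were not all the same CpGs in each male. A G2 DMR of 783 bp overlapped the G4 DMR (chr6:3003701-3004483), with 52.9% in dnmt1-/- and 71.6% in wt G2 sperm. This was the lowest wt level of the 39 regions, and there too the 2 groups overlapped. In whole body, over 9 CpGs, the ptprfa DMR had 62.8%, 68.5% and 66.4% in dnmt1-/- fish, against 94.7%, 91.9% and 92.5% in wt fish. It was called lower, with a difference of -27.1 points (limma, coefficient -1.83, SE 0.168, adjusted p = 6.92e-06 over the 172437 intervals).

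At the ptprfb DMR the order of the G2 groups was the opposite of that of the locus. Over 8 CpGs, dnmt1-/- males had 26.2%, 19.4% and 22.8%, against 3.55% and 0% in wt males 1 and 2. Wt male 3 had no value at any of the 16 CpGs and was left out. The mean difference was thus 21 points, higher in the mutants, beside -29.6 points at the whole locus. No G2 DMR overlapped the region, and the nearest ended 1864 bp away, with 73.6% in dnmt1-/- and 97.4% in wt sperm. In whole body, where 2 CpGs were read in every fish with values, the level over every CpG with a value was 12.1% and 44.2% in dnmt1-/- fish 1 and 3, against 49.9%, 49.3% and 61.9% in wt fish, with no value in dnmt1-/- fish 2. The difference of -25.5 points was -9.49 without mutant fish 1 and -41.5 without mutant fish 3, and no test was made.

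**Figure D4:**
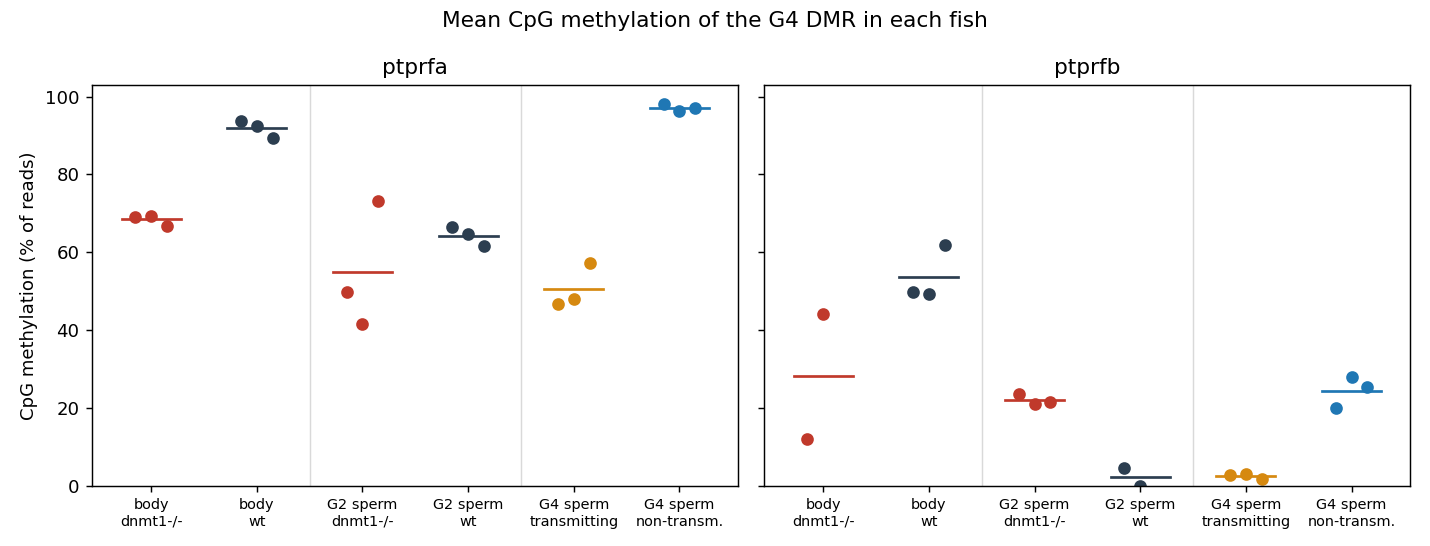
Mean methylation (percentage of reads, over every CpG with a value) of the G4 DMR of ptprfa and ptprfb in each fish; points are fish and lines group means, and 1 dnmt1-/- fish in body and 1 wt male in G2 sperm have no value at ptprfb. In ptprfa the non-transmitting males sit between 96.3% and 98%, above all other sperm samples, and in ptprfb the transmitting males, between 1.79% and 3.03%, lie close to the G2 wt males at 4.59% and 0%.

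Set side by side, the sperm groups fell into a different order at the G4 DMRs. At the ptprfa DMR, the means over every CpG with a value were 54.8% in G2 dnmt1-/-, 64.3% in G2 wt, 50.6% in transmitting and 97.1% in non-transmitting males. At the ptprfb DMR they were 22% in G2 dnmt1-/-, 2.29% in G2 wt, 2.53% in transmitting and 24.5% in non-transmitting males. At ptprfa, non-transmitting males had the highest mean. At ptprfb, they and the G2 dnmt1-/- males changed places with the CpGs used (22.4% in non-transmitting males and 22.8% in G2 dnmt1-/- males over the CpGs read in each male with values), and the range of the non-transmitting males over every CpG with a value, 19.9% to 27.99%, overlapped that of the G2 dnmt1-/- males, 20.95% to 23.6%. The transmitting males overlapped the range of the G2 wt males at ptprfb and that of the G2 dnmt1-/- males at ptprfa. The G2 and G4 males are of different generations, and the comparison between them was not tested.

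Over the 543 CpGs of ptprfa and 1057 of ptprfb that were read in each of the 18 fish, the 6 groups had the same order at both loci. For ptprfa it ran from 55.5% in dnmt1-/- whole body to 70.9% in dnmt1-/- G2 sperm, 83.5% in wt whole body, 93% in transmitting G4 sperm, 93.8% in non-transmitting G4 sperm and 94.1% in wt G2 sperm. For ptprfb it ran from 58.9% to 66.6%, 84.9%, 97.1%, 97.2% and 97.6% in the same groups. Neighbours in this order overlapped for the non-transmitting G4 and wt G2 males at ptprfa, and for the transmitting and non-transmitting G4 males at ptprfb. The ranges of all other neighbours did not overlap, though at ptprfb dnmt1-/- G2 sperm (60.59% to 70.04%) and dnmt1-/- whole body (58.32% to 59.47%) were closer to each other than the fish of the first of these groups. In the whole series of 14684 loci, the medians were 57.1%, 68.4%, 86.5%, 96.1%, 96.1% and 96.7% in that order.

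Of the other LAR-type receptors, a pair could be examined, and both were lower in the mutants. The locus of ptprdb, an ortholog of the LAR-type receptor gene PTPRD, fell to 53.5% in dnmt1-/- whole body, against 84.8% in wt (difference -31.3 points, limma adjusted p = 2.14e-08). That of ptprsa, an ortholog of PTPRS, had 63.7% in dnmt1-/- and 83.3% in wt whole body (difference -19.7 points, adjusted p = 4.01e-08), just short of the minimum of 20 points and therefore not called. In G2 sperm, ptprdb differed by -27.5 points and ptprsa by -19.8 points, beside -21.8 points for ptprfa and -29.6 points for ptprfb. Neither had a G4 DMR, with differences of -0.16 and -0.21 points in G4 sperm. The genes ptprsb and ptprda were not matched by symbol to a region and were not analysed here.

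Of the 87 genes on 4 lists (LAR-type receptors, other receptor tyrosine phosphatases, ligands and co-receptors, and intracellular partners and substrates of LAR), 61 were matched by symbol to the DMR lists, each with a G2 DMR, and the others were not analysed here. Of the 61, ptprfa and ptprfb had a G4 DMR, a property for which they were chosen, and the others had none. A G4 DMR was rare among all genes, with 143 of the 20731 genes having any. In whole body, 57 of 58 loci of the listed genes other than ptprfa and ptprfb were called lower in dnmt1-/- fish and 0 higher, where 95.7% of all loci were called. The exception was ptprsa. The median difference was -28.4 points for 22 ligands and co-receptors, which include the Slitrk and glypican families, -27.2 points for 16 intracellular partners, which include liprins and Trio, and -30 points for 18 loci of other receptor phosphatases, beside -28.3 points over all loci.

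The loci most like ptprfa over the 18 fish were si:dkey-14k21.1, ppargc1a, a transcriptional coactivator of mitochondrial genes, and map7d1b, with mean absolute differences of 0.657, 0.666 and 0.709 points per fish. Those most like ptprfb were rad51b, a DNA repair gene, fndc3bb and kidins220a, at 0.481, 0.554 and 0.579 points. The paralogs differed from each other by 3.36 points, and among 14683 loci ptprfb ranked 4611 in likeness to ptprfa and ptprfa 7270 in likeness to ptprfb. The pattern at the level of the locus is therefore shared with many genes on other chromosomes.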

How the data were processed

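The authors trimmed the reads of 2 libraries per fish with cutadapt 1.9.1, mapped them to bisulfite-converted danRer10 (GRCz10) with BWA 0.7.12, removed duplicates with Picard 1.136, merged the libraries and counted methylated reads per CpG. The deposited single-CpG values are the fraction of reads methylated, printed here as percent, with no other normalization. Values under 10 reads or at variant positions were set to missing by the authors, which favours well-covered CpGs. The DMR lists of the authors came from metilene and limma (adjusted p-values, coefficients and differences between groups in these lists were not used), and their deposited group means were used as a check of interval bounds and for the regions next to the distance limit. Interval means calculated here differed from them by at most 1.64e-08 percentage points.

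Per-fish means were calculated in R 4.3.3 over the CpGs read in each of the 6 fish compared, or over every CpG with a value where stated. Every CpG with a value was also used for the sperm levels of the G2 DMRs, the 1 kb adjoining the G4 DMRs and the gene starts. There the fish could differ in the CpGs read. At the G4 DMRs, a fish with no value was left out. Whole body was tested with limma 3.58.1 on the logit of the mean (offset 0.01) over all gene loci (at least 20 CpGs), 1 kb windows and DMR intervals (at least 5 CpGs), with Benjamini-Hochberg adjustment, and a call needed an FDR under 5% with a difference of 20 percentage points or more. The limma fit was tried on simulated 1 kb windows of whole body, and not on simulated gene loci or DMR intervals. No sample's columns were left out, and 2 tables of G2 DMRs evaluated in G4 sperm and a table of mean levels in whole body were not used here. No pair of fish shared more than 1.7% of window means.

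The members, gene lists and tests were chosen with earlier results of these data known. The genes named are the paralogs, other LAR-type receptors, genes with regions inside the loci, and for each paralog the 3 loci with the smallest mean absolute difference over 18 fish. The G4 columns headed as control and Pb were read as non-transmitting and transmitting, since the supplementary lists of the study give the same group means under the names G4+ and G4*. Alternatives tried were the offset, untransformed values, no minimum difference, window size, position and CpG minimum, every CpG, medians, the locus bounds, a replicate block, and leaving out each fish.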

Additional observations from a re-analysis of the deposited data

Results flagged for a closer look

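At the G4 DMR of ptprfb, dnmt1-/- and wt fish differed in opposite directions in whole body and in G2 sperm. Over every CpG with a value, the level in dnmt1-/- minus wt was -25.5 points in whole body (12.1% and 44.2% in dnmt1-/- fish, against 49.3% to 61.9% in wt fish) and 19.7 points in G2 sperm (20.95% to 23.6% in dnmt1-/- males, against 4.59% and 0% in wt males). Every mutant with a value lay on the same side of the wt mean within a tissue. The difference between the tissues was not tested, and 1 fish in each comparison had no value there. In whole body the fish were read over partly different CpGs, 6 to 14 in a fish with values. The whole body difference was -9.49 points without mutant fish 1 and -41.5 points without mutant fish 3.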

How the results depend on the processing

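The whole body changes at the loci (-27.4 and -25.3 points) and the paralog difference kept their direction under the alternatives run, and both loci stayed called. The main counts called lower were 29 and 51 DMR intervals, 54 and 114 windows and 57 list loci. With no minimum difference they were 32 and 71 intervals, 62 and 153 windows and 58 list loci. Over every CpG with a value, 36 and 56 intervals were called lower. With only the regions inside the gene, 55 list loci were. Windows of 2 kb gave 55 and 118, and windows shifted by 500 bp gave 55 and 111. With at least 10 CpGs per window, 11 ptprfa and 19 ptprfb windows were called lower. This setting leaves fewer windows to test, and the number tested is not given here. The share of the genome called at this setting and those above is not given either. With a replicate block, the locus changes were -27.4 and -25.3 points with adjusted p of 2.22e-06 and 2.29e-06 (limma), and no call changed. Same-numbered fish were not paired by the labels, and their deviations in window means had correlations of 0.0115, -0.0136 and -0.00115. Leaving out each fish gave -27.7 to -27.0 points at ptprfa and -25.7 to -25.1 points at ptprfb, 28 to 29 and 50 to 53 DMR intervals, and 53 to 56 and 114 to 119 windows. The G4 change at the ptprfa locus (-0.761 points) was 0 for the median over CpGs and -0.31 without the CpGs of the G4 DMR. The whole body change at the ptprfa G4 DMR (-27.1 points) was -23.4 over every CpG with a value. The exact test of the paralog difference gave p = 0.1 to 0.2 over the alternatives, with 0.2 the smallest possible where a fish was left out. The reads behind each CpG are unknown, and the ptprfb G4 DMR rests on 6 to 16 CpGs in a fish with values.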
